A study of Mus musculus with 36 samples.

Results

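The 6 libraries described here, of 36 in the series, were the PBS controls of the Il-4 table: 3 labelled replicates 1–3 (columns A, I and Q) and 3 labelled replicates 4–6 (columns named PBS-rep). Each library was made from RAW264.7, an established line of mouse macrophages, after 72 h with PBS. The other 12 libraries of the table were cells given peptide (100 μg/ml), either 65–79*PE or 65–79*SE, which are short synthetic peptides of the HLA-DRβ chain, with Il-4 (5 ng/ml), and the remaining 18 made up the IFNγ table. The labels give PBS as the treatment and Il-4 in the title, so whether these controls also received Il-4 was not settled by the sources used here. No genotype, passage or clone was given. The study described its replicates as biological and drawn from separate experiments, with one preparation method for all. Experiment, culture, library preparation and sequencing run cannot be told apart in a comparison of the 2 replicate sets, and p-values measure the spread between these libraries, which may be technical.

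A messenger RNA is normally given a poly(A) tail after cleavage downstream of the signal AATAAA, and a preparation that captures poly(A) tails draws on that tail. Replication-dependent histone messengers are the exception: they end in a conserved stem-loop bound by the protein SLBP, carry no tail, and are made in S phase. RNA polymerase III transcripts such as 7SK (Rn7sk) and the RNA subunits of the ribonucleases MRP (Rmrp) and P (Rpph1), the small nuclear and small nucleolar RNAs, and ribosomal RNA also lack a tail. Replacement histones, such as H2afz and H3f3a, are made outside S phase from polyadenylated messengers.

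Parts of these transcripts are shown because the largest differences between the replicate sets lay in genes of these kinds. For the 4 replication-dependent histone genes with the highest level in replicates 4–6, capitals mark the stem-loop. It was found as a perfect stem of 6 bases around a loop of 4, searched over the whole transcript on its strand. The letters were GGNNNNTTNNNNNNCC, with the outer 6 bases on either side complementary. After it the annotated transcript ran on for 840 (Hist1h1c), 4884 (Hist1h1d), 770 (Hist1h4d) and 1153 bases (Hist1h1e), so these stem-loops did not lie at the annotated ends.
Hist1h1c: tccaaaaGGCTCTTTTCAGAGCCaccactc
Hist1h1d: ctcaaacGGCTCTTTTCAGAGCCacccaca
Hist1h4d: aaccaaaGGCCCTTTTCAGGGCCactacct
Hist1h1e: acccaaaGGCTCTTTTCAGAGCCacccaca
The last 30 bases of transcripts that hold AATAAA (capitals) are shown for the replacement histone H2afz and the replication-dependent histone genes Hist1h1c and Hist2h2be. No stem-loop of these letters was found in Hist2h2be.
H2afz: ggtggataagctcAATAAAggtcatatccc
Hist1h1c: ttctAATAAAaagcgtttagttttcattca
Hist2h2be: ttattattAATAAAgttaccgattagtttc
The last 30 bases of 3 small RNAs that do not hold AATAAA anywhere are shown beside them, with the closing run of T of Rn7sk in capitals.
Rn7sk: ggcgctgcatgtggcagtctgcctttcTTT
Rmrp: caaccacacggggctcattctcagcgcggc
Rpph1: ataacccaattcagactactctcccccgcc
The sequences are from the GENCODE M21 transcripts of GRCm38. Anywhere in a transcript, the stem-loop letters stood in 44 of 67 replication-dependent histone genes with a transcript (65.7%). They stood in 0 of 10 replacement histone genes and in 83 of 21251 other protein-coding genes (0.391%). AATAAA, searched only in the last 50 bases, stood there in a transcript of 14 (20.9%), 9 (90.0%) and 14038 (66.1%) genes of the same sets. A gene without a match says only that these letters were not in the annotated sequence.

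Total counts ranged from 24560753 to 26397467 in replicates 1–3 and from 17049921 to 21076471 in replicates 4–6. A gene with no count could have had up to 3, or 0.114 to 0.176 CPM, the count scaled to the size of its library after TMM normalization. The shallower replicates 4–6 held more genes with a count, 18848 to 19358 against 17160 to 17638. Of 12954 genes tested with edgeR's quasi-likelihood test, 6257 (48.3%) were called at a Benjamini-Hochberg adjusted p under 0.05 and a fold change over 1.5. They divided into 3519 higher in replicates 4–6 (27.2% of those tested) and 2738 lower (21.1%). Without overlap between the sets were 6184 of the 6257 called genes, against 9222 of all 12954 tested. The median log2 fold change of all tested genes was 0.02. The counts of each list below are to be read against these shares. All values below are levels in CPM or log2 fold changes of replicates 4–6 over 1–3, and bulk RNA cannot tell more cells of a kind from more RNA per cell.

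Most classes whose members normally lack a poly(A) tail took a far larger share of counts in replicates 4–6 than in replicates 1–3. The annotated rRNA class of the nucleus was an exception: it took 0.0157%, 0.00139% and 0.00277% of counts in replicates 1–3 and 0.00167%, 0.00179% and 0.0110% in replicates 4–6, and the sets overlapped (exact permutation p = 0.7). Genes of the nucleus that code for protein took 92.9%, 94.9% and 94.8% of counts in replicates 1–3 and 85.8%, 82.5% and 76.9% in replicates 4–6. The 70 replication-dependent histone genes took 0.0105%, 0.00684% and 0.00553% of counts in replicates 1–3 and 1.55%, 0.837% and 0.509% in replicates 4–6. With 3 libraries against 3, an exact two-sided permutation test cannot go below p = 0.1, and it gave 0.1 for both classes and for each class named next unless stated.

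**Figure D1:**
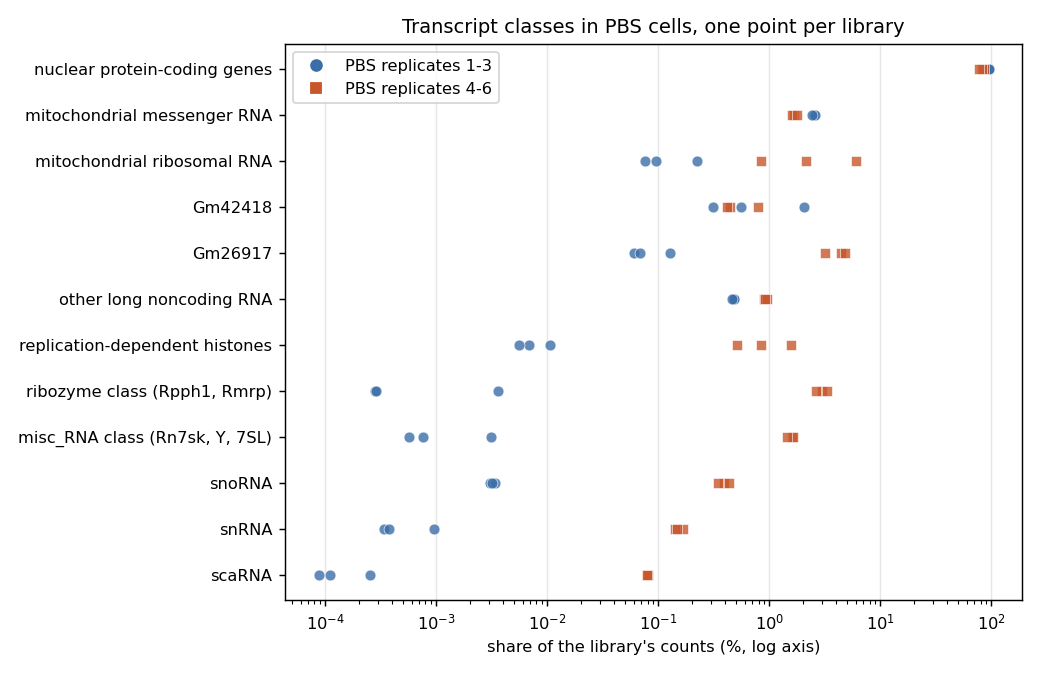
Share of each library's counts (percent, log axis) taken by transcript classes in the 6 PBS libraries, circles for replicates 1–3 and squares for replicates 4–6. Small RNA and histone classes lie to the right by a factor of over 100 in replicates 4–6, Gm42418 overlaps between the sets, and the nuclear protein-coding share is lower in replicates 4–6.

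Histone genes. All 60 replication-dependent histone genes that passed the filter were called higher, against 27.2% of all tested genes, and none of the 60 overlapped between the sets. The other 10 of the 70 did not pass the filter, which a gene high in 1 set alone can pass, so the 60 are not the whole class. The summed level of the class was 106, 66.7 and 54.02 CPM in replicates 1–3 and 15143, 8415 and 5428 CPM in replicates 4–6. The median log2 fold change over the 60 was 10.16, or 9.37 with the 25 genes at 3 counts or fewer in each library of replicates 1–3 set to the bound that those 3 counts allow.

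The linker histone Hist1h1c measured 60.5, 33.3 and 27.3 CPM in replicates 1–3 and 1161, 719.7 and 453 CPM in replicates 4–6 (log2 fold change 4.27 ± 0.41 (SE), adjusted p = 3.86e-05). Replicate 4 was the highest library and replicate 3 the lowest. Hist1h1d, another linker histone, measured 0.924, 0.278 and 0.259 CPM in replicates 1–3 and 1026, 481 and 274 CPM in replicates 4–6 (log2 fold change 10.25 ± 0.69 (SE), adjusted p = 6.63e-06). For the core histone gene Hist1h4d the values were 0.442, 0.199 and 0.0740 CPM in replicates 1–3 and 860.3, 445 and 295 CPM in replicates 4–6, and the log2 fold change was 11.12 ± 0.61 (SE). Hist1h1e, also a linker histone, had 1.45, 0.119 and 0.555 CPM in replicates 1–3 and 731, 471 and 349.6 CPM in replicates 4–6 and a log2 fold change of 9.51 ± 0.56 (SE). Of these 4 genes, Hist1h1c alone was above 2 CPM in replicates 1–3, and it is the only one whose annotated transcript holds AATAAA near its end. Replicate 1 weighed on the other 3, whose log2 fold changes without it were 11.07 for Hist1h1d, 11.88 for Hist1h4d and 10.52 for Hist1h1e, and Hist1h1d stood at 9.59 without replicate 4.

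The smallest differences of the class, picked out after the values were seen, were those of Hist2h2be, with 9.52, 11.05 and 9.35 CPM in replicates 1–3 and 21.5, 19.2 and 16.03 CPM in replicates 4–6 (log2 fold change 0.92 ± 0.15 (SE), adjusted p = 0.000554), and Hist3h2a, with 2.57, 2.46 and 2.18 CPM in replicates 1–3 and 5.21, 5.67 and 5.36 CPM in replicates 4–6 (log2 fold change 1.17 ± 0.18 (SE), adjusted p = 0.000436). Transcripts of both hold AATAAA in their last 50 bases. Over the 10 tested genes with AATAAA there, the median log2 fold change was 8.30 and the range 0.92 to 10.74. Over the 48 without it the median was 10.58 (9.49 with bounds), ranging from 2.47 to 12.95, so the groups overlapped widely.

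Replacement histones did not share the pattern. Of 9 tested, 4 were called higher and 2 lower, with a median of 0.10. H2afz (H2A.Z) measured 198, 189.8 and 183 CPM in replicates 1–3 and 387, 301 and 286 CPM in replicates 4–6 (log2 fold change 0.77 ± 0.13 (SE), adjusted p = 0.000669). H3f3a rose from 124 ± 11.8 to 210.1 ± 13.9 CPM and H3f3b, which codes for the same H3.3 protein, fell from 393 ± 23.1 to 225 ± 61.4 CPM (SD, n = 3 per set). Of 13 tested genes that process the histone 3′ end, 6 were higher and 2 lower. Slbp, the stem-loop binding protein, measured 18.8, 31.03 and 29.3 CPM in replicates 1–3 and 57.3, 36.3 and 41.9 CPM in replicates 4–6 (log2 fold change 0.78 ± 0.22 (SE), adjusted p = 0.012), and it lost its call without replicate 1 (log2 fold change 0.57) or replicate 4 (0.56). Npat, a coactivator of histone transcription, rose from 20 ± 3.84 to 48.5 ± 5.62 CPM. With the trend against base composition removed, as described further on, 1 of the 13 was higher and Slbp and Npat were not called (0.49 and 0.34).

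**Figure D2:**
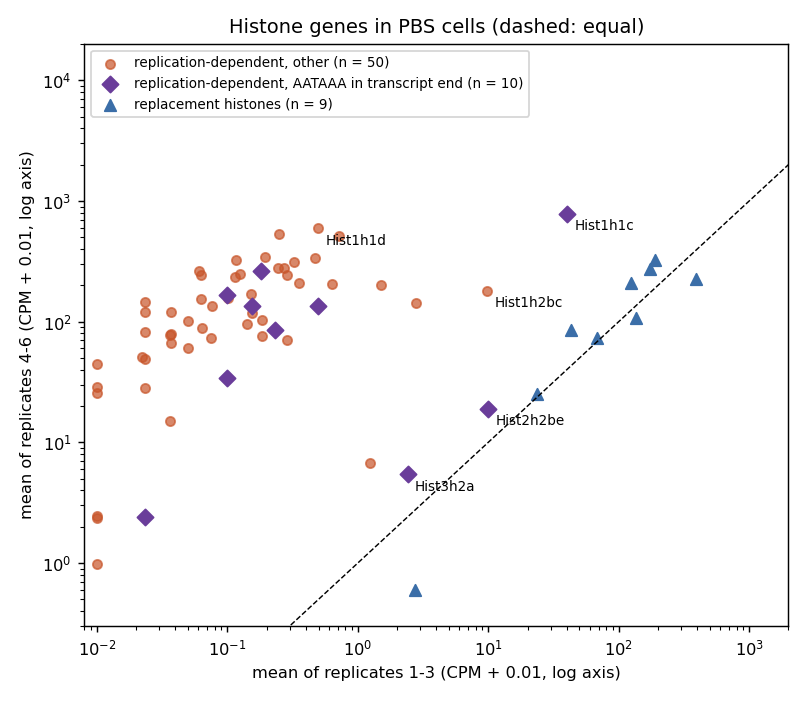
Mean level of each tested histone gene in replicates 1–3 (horizontal) and 4–6 (vertical), in CPM + 0.01 on log axes, with the dashed line at equal levels. The 60 replication-dependent genes lie above the line, Hist2h2be and Hist3h2a nearest to it, while the 9 replacement histones scatter around it.

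Small noncoding RNAs. Rn7sk, the 7SK RNA that holds P-TEFb inactive (chromosome 9, 78175303 to 78175633, minus strand, GRCm38), measured 25.1, 3.10 and 5.32 CPM in replicates 1–3 and 15137, 15912 and 14731 CPM in replicates 4–6 (log2 fold change 10.42 ± 0.89 (SE), adjusted p = 2e-05). Rpph1 (chromosome 14, 50807449 to 50807767, minus strand) measured 15.6, 1.11 and 0.961 CPM in replicates 1–3 and 14517, 17432 and 13312 CPM in replicates 4–6 (log2 fold change 11.33 ± 1.21 (SE), adjusted p = 6.56e-05). Replicate 1 was the highest of replicates 1–3 for both genes, and replicates 4–6 lay within a narrow range. Without replicate 1 the log2 fold changes were 11.80 for Rn7sk and 13.81 for Rpph1. Rmrp, named after its values were seen, measured 20.2, 1.51 and 1.81 CPM in replicates 1–3 and 14002, 15059 and 14261 CPM in replicates 4–6. The telomerase RNA Terc stood at 0.0803, 0.119 and 0.148 CPM in replicates 1–3 and 68.4, 74.1 and 85.2 CPM in replicates 4–6. Of 19 genes in the list of RNA polymerase III and signal recognition RNAs (with some spliceosomal and nucleolar RNAs) that were in the table, 16 passed the filter and all 16 were higher. Of all tested genes 27.2% were higher, and a gene high in 1 set alone can pass the filter. The median of the 16 was 10.61, or 7.94 with the 7 genes at the floor in replicates 1–3 set to their bound.

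Of 1479 small nucleolar RNAs, which guide modification of ribosomal RNA, 109 were tested, and 105 of these were higher and none lower. Of all tested genes 27.2% were higher. As a gene high in 1 set alone can pass the filter, such counts of tested small RNAs do not stand for the whole classes. Their class share was 0.00307%, 0.00336% and 0.00315% of counts in replicates 1–3 and 0.386%, 0.345% and 0.432% in replicates 4–6. Rnu3a (U3), needed for ribosomal RNA cleavage and named after its values were seen, measured 0.723, 0.278 and 0.185 CPM in replicates 1–3 and 1977, 1836 and 2577 CPM in replicates 4–6. Small nuclear RNAs of the spliceosome were higher for 34 of 35 tested, out of 1382 in the class, and their share reached 0.166%, 0.142% and 0.147% in replicates 4–6. All 14 tested Cajal body RNAs (scaRNA), out of 45 in the class, were higher, with shares of 0.0787%, 0.0801% and 0.0795%. These 3 classes differed little among replicates 4–6. Of 50-base windows of Rn7sk and of Rpph1, 68.1% recurred in a transcript of another gene (most often Gm24447 and Ccnb1ip1, in that order), so these 2 values depend on how such reads were assigned.

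Ribosomal RNA and mitochondrial transcripts. Mitochondrial ribosomal RNA took 0.225%, 0.0761% and 0.0956% of counts in replicates 1–3 and 0.837%, 2.12% and 6.03% in replicates 4–6. The large subunit RNA mt-Rnr2 measured 1281, 409 and 474 CPM in replicates 1–3 and 6879, 18266 and 53592 CPM in replicates 4–6 (log2 fold change 5.18 ± 0.80 (SE), adjusted p = 0.000479). Replicates 4, 5 and 6 were spread over a wide range, with replicate 6 highest and replicate 4 lowest. The log2 fold change of mt-Rnr2 was 4.10 without replicate 6 and 5.88 without replicate 1. The same 3 numbers stood in that order in both peptide arms: 0.395%, 1.47% and 6.36% with 65–79*SE, and 0.673%, 1.48% and 6.46% with 65–79*PE. Mitochondrial messenger RNA moved the other way as a class in PBS cells, with 2.55%, 2.60% and 2.41% of counts in replicates 1–3 and 1.66%, 1.61% and 1.77% in replicates 4–6. Over the peptide arms the ranges overlapped, with 1.43% to 3.17% in replicates 1–3 and 1.68% to 2.06% in replicates 4–6. Of 10 tested in PBS cells, 5 were lower and 3 higher. mt-Nd4, a subunit of respiratory complex I, measured 2310.0, 2179 and 1965 CPM in replicates 1–3 and 346, 373 and 556 CPM in replicates 4–6 (log2 fold change -2.34 ± 0.19 (SE), adjusted p = 1.57e-05). mt-Cytb, of complex III, measured 6060.2, 5977 and 5580.4 CPM in replicates 1–3 and 1344, 1693 and 2686 CPM in replicates 4–6 (log2 fold change -1.62 ± 0.23 (SE), adjusted p = 0.000323). mt-Co1, of complex IV, stood at 8724, 8894 and 8868 CPM in replicates 1–3 and 12311, 11492 and 11656 CPM in replicates 4–6 and was not called. The 3 that were higher, mt-Co2, mt-Co3 and mt-Atp6, were at or under the floor in most libraries of replicates 1–3 and under 20 CPM in replicates 4–6. Only uniquely aligned reads were counted and the nucleus holds copies of mitochondrial sequence, so these 3 values are uncertain.

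Gm26917 and Gm42418 lie next to each other on chromosome 17, and RefSeq lists Gm42418 as Rn18s-rs5, a pseudogene of 18S ribosomal RNA. Gm26917 (chromosome 17, 39843013 to 39846341, plus strand, GRCm38) measured 1279, 589 and 666 CPM in replicates 1–3 and 30650.0, 44538 and 50873 CPM in replicates 4–6 (log2 fold change 5.64 ± 0.37 (SE), adjusted p = 6.37e-06), which was 4.11% ± 0.86 of counts in replicates 4–6 (SD, n = 3). Gm42418 (chromosome 17, 39846958 to 39848788, plus strand) measured 20626, 3021 and 5387 CPM in replicates 1–3 and 4282, 4202 and 8359 CPM in replicates 4–6 and was not called (log2 fold change -0.79 ± 0.62 (SE), adjusted p = 0.287). Replicate 1 was the highest library for Gm42418 and the sets overlapped, with an exact permutation p of 0.7 for its share. A gene of the miRNA class, Gm23935, whose 50-base windows all recur elsewhere, measured 64.2, 20.6 and 21.7 CPM in replicates 1–3 and 707, 6781 and 24112 CPM in replicates 4–6, and its class overlapped between the sets (exact permutation p = 0.2). The last 2 genes were named after their values were seen.

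Long noncoding RNAs. Of 751 tested, out of 6878 in the class, 380 were higher and 57 lower, against 27.2% higher and 21.1% lower of all tested genes. Without Gm26917 and Gm42418 the class took 0.480%, 0.485% and 0.459% of counts in replicates 1–3 and 0.900%, 0.960% and 0.908% in replicates 4–6. In the list of nuclear and host long noncoding RNAs, 12 of 21 tested were higher and none lower, with a median of 0.67. Malat1, a nuclear RNA of speckles whose 3′ end forms a triple helix in place of a tail, measured 491, 589 and 405 CPM in replicates 1–3 and 3499.7, 4569 and 4621 CPM in replicates 4–6 (log2 fold change 3.10 ± 0.18 (SE), adjusted p = 3.8e-06). Kcnq1ot1, an imprinted unspliced nuclear RNA, rose from 4.59 ± 1.81 to 159.6 ± 23.6 CPM. Neat1, the scaffold of paraspeckles, measured 160.5, 301 and 299 CPM in replicates 1–3 and 378, 258 and 250.1 CPM in replicates 4–6 and was not called (log2 fold change 0.22 ± 0.25 (SE), adjusted p = 0.453). With the trend against GC and length removed, it was lower (-0.76, adjusted p = 0.0328). Genes annotated as still to be experimentally verified (TEC) were higher for 322 of 376 tested, and pseudogenes for 249 of 539, with 11 and 104 lower. These classes held 2488 and 9987 genes, and the counts cover only those that passed the filter.

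Protein-coding genes of the nucleus. Of 10554 tested outside the histone and ribosomal protein genes, 2163 were higher and 2499 lower, with a median of -0.09. Ribosomal protein genes were mostly not called (5 higher and 8 lower of 81). Of the largest rises at 10 CPM or more, Klhl11, a ubiquitin ligase adaptor, measured 2.49, 2.50 and 2.74 CPM in replicates 1–3 and 39.6, 37.7 and 33.4 CPM in replicates 4–6 (log2 fold change 3.84 ± 0.13 (SE), adjusted p = 3.18e-07). Lmbrd2, a membrane protein, measured 5.90, 5.88 and 7.28 CPM in replicates 1–3 and 69.2, 81.1 and 71.2 CPM in replicates 4–6 (log2 fold change 3.54 ± 0.13 (SE), adjusted p = 4.07e-07), and the zinc finger gene Zfp871 rose from 5.82 ± 1.08 to 67.4 ± 2.36 CPM. Among the falls, Mospd3 measured 41.3, 51.5 and 52.5 CPM in replicates 1–3 and 1.78, 3.45 and 3.29 CPM in replicates 4–6 (log2 fold change -4.08 ± 0.22 (SE), adjusted p = 2.88e-06), Stac2 fell from 42.03 ± 6.84 to 4.02 ± 1.41 CPM, and Ecm1, an extracellular matrix protein, fell from 45.5 ± 5.63 to 4.61 ± 3.63 CPM. Without replicate 6 the log2 fold change of Ecm1 was -4.20, against -3.29 with all 6.

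The rule also named Rpl24, Sec61g and Gm11361 among the rises and Rpl10-ps3, Rps16 and Gm10073 among the falls. Rpl24 went from 0.367 ± 0.131 to 23.7 ± 3.86 CPM and Rps16 from 549 ± 9.73 to 36.3 ± 27.5 CPM. Between 20.5% (Sec61g) and 96.1% (Rpl10-ps3) of the 50-base windows of these 6 transcripts recurred in another gene, such as Rpl10 for Rpl10-ps3, so their values may depend on how near-identical copies were counted and are uncertain. Rps16 moved from -3.92 to -4.76 without replicate 6. In the PBS cells of the IFNγ table Rpl24 and Gm11361 were lower in replicates 4–6 (log2 fold changes -0.99 and -1.94). Sec61g (0.29) and Rpl10-ps3 (-0.31) were short of the fold needed there, and Rps16 and Gm10073 were lower (both -2.25).

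Base composition and length moved with the difference between the sets. Among 10545 protein-coding genes, the quintile with the lowest GC content of the longest transcript (median 41.2%) had a median log2 fold change of 0.73, and 56.7% of its genes were higher and 3.08% lower. The quintile with the highest GC (median 57.7%) had a median of -0.64, with 3.13% higher and 51.7% lower. The 3 quintiles in between gave 0.25, -0.12 and -0.44. Spearman's rho across these genes was -0.62 with GC and 0.27 with length, given as a description, since genes share libraries and are not independent replicates. By transcript length the medians ran from -0.30 in the shortest quintile to 0.35 in the longest. The GC difference was present at either end of the length range. From the lowest to the highest GC quintile, medians went from 0.32 to -0.48 among the shortest transcripts and from 1.18 to -0.64 among the longest. Replication-dependent histone genes, with a median GC of 57.8% against 49.6%, were higher, the opposite of the trend.

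With the trend of each library against GC and length removed before the same test, an alternative chosen after seeing the data, 4687 genes were called (2861 higher and 1826 lower), of which 3537 were among the 6257. Named genes below that lost their call in this way are given with both values.

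**Figure D3:**
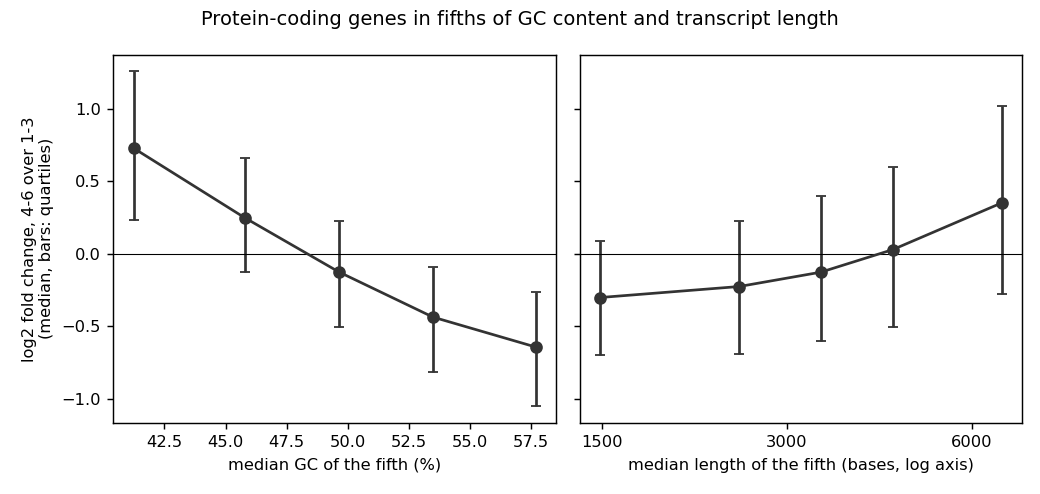
Median log2 fold change (points) and quartiles (bars) of protein-coding genes in quintiles of GC content, left, and of transcript length on a log axis, right. Medians go from 0.73 to -0.64 with rising GC and from -0.30 to 0.35 with rising length.

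Immune genes as a whole were lower more often than higher. The 16 immune lists held 302 genes, of which 64 did not pass the filter. Of 238 tested, 28 were higher (11.8%) and 85 lower (35.7%), against 27.2% and 21.1% of all tested genes. Their median log2 fold change was -0.28, and that of protein-coding genes in the same quintiles of GC and length was -0.24. For the 235 immune genes that could be placed in such a class, the median difference from the class was -0.20. With the GC and length trend removed, 28 were higher (11.8%) and 60 lower (25.2%), with a median of -0.17, against 22.1% higher and 14.1% lower of all tested genes in the same fit, with a median of 0.09.

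**Figure D4:**
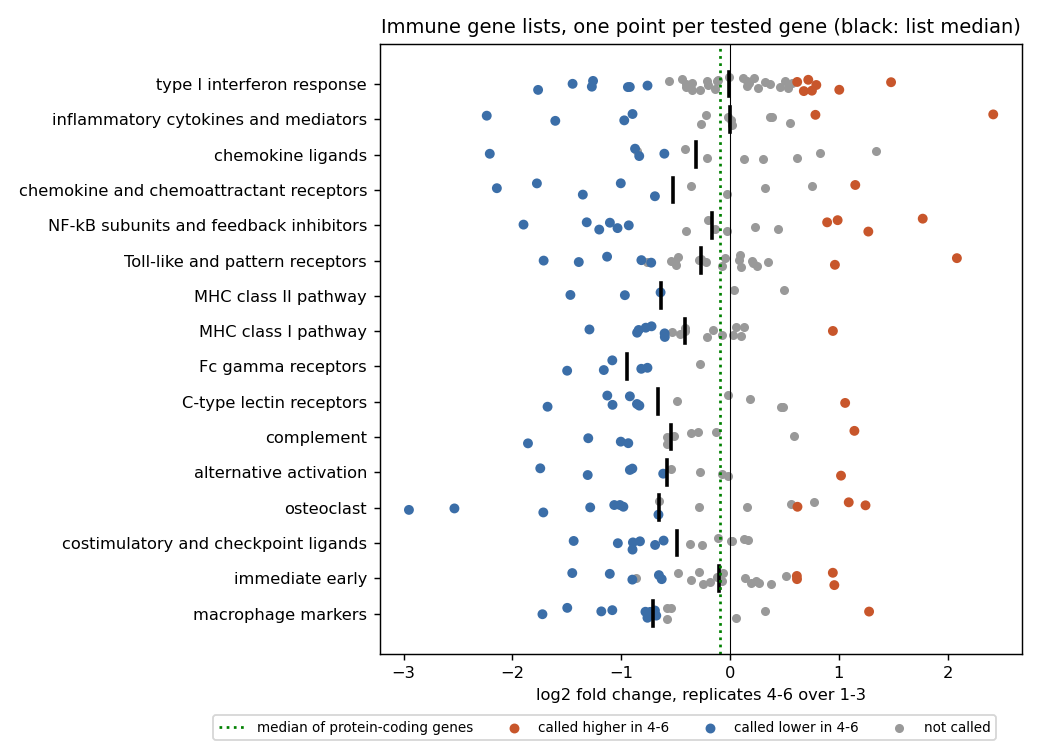
Log2 fold change of replicates 4–6 over 1–3 for each tested gene of the 16 immune lists, coloured where called, with list medians as black bars and the median of protein-coding genes (-0.09) dotted. Fc gamma receptors (median -0.95) and macrophage markers (-0.71) lie furthest left, and the type I interferon response is centred near 0.

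Pattern receptors and signalling. Toll-like and other pattern receptors sense microbial products and signal through MyD88 or TRIF to NF-κB and interferon regulatory factors. Of 25 tested genes 2 were higher and 5 lower, or 2 and 7 with the trend removed. Tlr4, the endotoxin receptor, measured 51.2, 54.2 and 58.7 CPM in replicates 1–3 and 294, 235 and 168 CPM in replicates 4–6 (log2 fold change 2.09 ± 0.19 (SE), adjusted p = 2.61e-05), and it stayed higher with the trend removed (1.25). Its adaptor gene Myd88 measured 101, 104 and 102 CPM in replicates 1–3 and 29.6, 43.8 and 66.9 CPM in replicates 4–6 (log2 fold change -1.13 ± 0.24 (SE), adjusted p = 0.00299), and Irak1, a kinase downstream, fell from 133 ± 4.42 to 75.9 ± 2.42 CPM. Both fell short of the call with the trend removed (-0.57 and -0.34).

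Of 16 NF-κB subunits and feedback inhibitors, 4 were higher and 6 lower, or 2 and 3 with the trend removed. Tnip1, which restrains NF-κB signalling, measured 126, 135 and 145 CPM in replicates 1–3 and 25.6, 34.7 and 48.6 CPM in replicates 4–6 (log2 fold change -1.90 ± 0.20 (SE), adjusted p = 6.63e-05). Rela (p65) measured 80.3, 80.5 and 79.6 CPM in replicates 1–3 and 27.7, 33.9 and 42.97 CPM in replicates 4–6 (log2 fold change -1.20 ± 0.15 (SE), adjusted p = 0.000152), a fall that did not pass with the trend removed (-0.43). Cyld, a deubiquitinase that dampens the pathway, rose from 45.5 ± 3.79 to 109.9 ± 9.44 CPM, again not past the call with the trend removed (0.45).

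Immediate early genes, induced within minutes of a stimulus, gave 4 higher and 5 lower of 24. With the trend removed they gave 10 higher and none lower, and the median moved from -0.10 to 0.47. Klf6 measured 124, 116 and 117 CPM in replicates 1–3 and 252, 241 and 194 CPM in replicates 4–6 (log2 fold change 0.95 ± 0.11 (SE), adjusted p = 0.000125). Zfp36, which destabilises cytokine messengers, measured 30.6, 37.6 and 35.3 CPM in replicates 1–3 and 22.5, 20.3 and 24.3 CPM in replicates 4–6 (log2 fold change -0.63 ± 0.12 (SE), adjusted p = 0.00165), and its value with the trend removed was -0.03. Klf6 did not pass with the trend removed (0.39), and Zfp36 fell short without replicate 2 (-0.57) or 5 (-0.58), with the scale set on protein-coding genes (-0.55) and with the stricter count filter (-0.57). Ier3, an early response gene, rose from 44.9 ± 4.59 to 68.7 ± 16.4 CPM (1.17 with the trend removed). It fell short without replicate 3 (0.52), 4 (0.43) or 5 (0.58), with no filter (0.57) and in the fit of all 18 libraries (0.56).

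Cytokines, chemokines and their receptors. Of 14 tested inflammatory cytokines and mediators 2 were higher and 4 lower, or 4 and 3 with the trend removed. Tgfb1 (TGF-β1) measured 198, 204 and 205 CPM in replicates 1–3 and 27.3, 37.8 and 63.7 CPM in replicates 4–6 (log2 fold change -2.23 ± 0.26 (SE), adjusted p = 0.000103), the largest fall of the list. Ptgs2, the inducible cyclooxygenase, measured 3.25, 4.09 and 2.59 CPM in replicates 1–3 and 23.5, 19.5 and 10.3 CPM in replicates 4–6 (log2 fold change 2.42 ± 0.31 (SE), adjusted p = 0.000171), the largest rise. Both calls held with the trend removed (-1.75 and 1.59). Tnfsf9 (4-1BB ligand) fell from 77.5 ± 10.1 to 41.7 ± 0.589 CPM, and was -0.47 and not called with the trend removed.

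Tnf measured 36.7, 53.1 and 43.6 CPM in replicates 1–3 and 74.9, 64.9 and 56.5 CPM in replicates 4–6 (log2 fold change 0.56 ± 0.16 (SE), adjusted p = 0.0116), just short of the fold needed. It passed with the scale set on protein-coding genes (0.63), with the stricter count filter (0.61), with the trend removed (0.98), and without replicate 2 (0.69) or 6 (0.62). Il1b and Il6 were not tested, with every library of both sets at 6 counts or fewer. Nos2, the inducible nitric oxide synthase, measured 8.43, 3.97 and 2.55 CPM in replicates 1–3 and 6.53, 6.29 and 2.38 CPM in replicates 4–6 and overlapped between the sets (log2 fold change 0.02 ± 0.48 (SE), adjusted p = 0.971, or 0.62 without replicate 1).

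None of 12 chemokine ligands was called higher and 4 were lower. Cxcl16 measured 86.7, 115 and 114 CPM in replicates 1–3 and 84.8, 67.7 and 55.5 CPM in replicates 4–6 (log2 fold change -0.60 ± 0.17 (SE), adjusted p = 0.0118), and it was not called with the trend removed (-0.34) or without replicate 2 (-0.55), 3 (-0.55) or 6 (-0.49), nor with the scale set on protein-coding genes (-0.53) or the stricter count filter (-0.55). Ccl2, a monocyte chemoattractant, measured 23.01, 12.7 and 9.61 CPM in replicates 1–3 and 31.4, 21.6 and 16.3 CPM in replicates 4–6 (log2 fold change 0.61 ± 0.33 (SE), adjusted p = 0.131), and Cxcl10 measured 1.12, 0.397 and 0.370 CPM in replicates 1–3 and 2.63, 0.876 and 1.31 CPM in replicates 4–6 (log2 fold change 1.34 ± 0.54 (SE), adjusted p = 0.0521). Neither was called, although without replicate 1 both were, with 1.04 for Ccl2 and 2.02 for Cxcl10. Cxcl10 also passed without replicate 5 (1.61), with no filter (1.30), with the stricter filter (1.39), in the fit of all 18 libraries (1.28), with the scale set on protein-coding genes (1.41) and by DESeq2 (1.34), so its call depended on the setting. Among 10 receptors 1 was higher and 5 lower, or 0 and 5 with the trend removed. Cxcr4, the receptor for CXCL12, measured 14.2, 11.5 and 18.1 CPM in replicates 1–3 and 2.06, 2.63 and 5.16 CPM in replicates 4–6 (log2 fold change -2.14 ± 0.32 (SE), adjusted p = 0.000374), the largest fall of the list. C5ar1, the C5a receptor, fell from 49.1 ± 9.99 to 24.5 ± 1.33 CPM. Ptafr, the platelet-activating factor receptor, fell from 127 ± 8.90 to 78.7 ± 11.7 CPM and was not called with the trend removed (-0.44).

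Interferon response. The 39 tested genes of the type I interferon response were evenly split, with 7 higher, 7 lower and a median of -0.01. With the trend removed 4 were higher and 8 lower, with a median of -0.04. Ly6e measured 916, 1029.8 and 1002 CPM in replicates 1–3 and 326, 383 and 523 CPM in replicates 4–6 (log2 fold change -1.26 ± 0.17 (SE), adjusted p = 0.000216). Bst2 (tetherin) measured 146, 155 and 147 CPM in replicates 1–3 and 43.2, 58.1 and 84.4 CPM in replicates 4–6 (log2 fold change -1.27 ± 0.21 (SE), adjusted p = 0.00064), and Dtx3l, a ubiquitin ligase partner of PARP9, measured 20.8, 25.6 and 28.7 CPM in replicates 1–3 and 78.5, 69.5 and 61.6 CPM in replicates 4–6 (log2 fold change 1.48 ± 0.14 (SE), adjusted p = 4.07e-05). The calls of these 3 held with the trend removed (-0.59, -0.72 and 1.16).

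Antigen presentation. In the MHC class I pathway 1 of 19 tested genes was higher and 7 were lower, with a median of -0.41. H2-D1 measured 850.3, 780.4 and 774 CPM in replicates 1–3 and 458, 467 and 482 CPM in replicates 4–6 (log2 fold change -0.77 ± 0.10 (SE), adjusted p = 0.000142), H2-K1 fell from 452 ± 27.5 to 274 ± 7.80 CPM and Tapbp (tapasin) from 230.0 ± 20.5 to 129 ± 29.03 CPM. These 3 genes are rich in GC, as the list is (median 54.3%), and with the trend removed their log2 fold changes were -0.08, -0.13 and -0.11, the list giving 2 higher and 2 lower. H2-D1 and H2-K1 share 14.3% and 8.11% of their windows with other genes. In the class II pathway 3 of 5 were lower and 0 higher, or 2 and 1 with the trend removed. The invariant chain gene Cd74 measured 914, 944 and 790.4 CPM in replicates 1–3 and 186, 358 and 415 CPM in replicates 4–6 (log2 fold change -1.47 ± 0.26 (SE), adjusted p = 0.000934), and Ctss, the protease that trims it, measured 1717, 1816 and 1897 CPM in replicates 1–3 and 1023, 1114 and 1354 CPM in replicates 4–6 (log2 fold change -0.64 ± 0.13 (SE), adjusted p = 0.00227). Both held with the trend removed (-0.79 and -0.82), though Ctss lost its call without replicate 4 (-0.56), with the scale set on protein-coding genes (-0.56) and with the stricter count filter (-0.58).

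Fc receptors, lectins and complement. Of 6 genes in the list of Fc gamma receptors, which bind antibody, 5 were lower and none higher (median -0.95). The list includes a signalling chain. Fcer1g, this signalling chain, measured 528, 582 and 571 CPM in replicates 1–3 and 228, 254 and 313 CPM in replicates 4–6 (log2 fold change -1.08 ± 0.13 (SE), adjusted p = 0.00012). Fcgr3 fell from 141 ± 8.55 to 80.02 ± 2.85 CPM and Fcgr4 from 16.8 ± 2.10 to 5.92 ± 1.47 CPM. With the trend removed 3 of the 6 were lower and the median was -0.58. C-type lectin receptors were lower for 6 of 12 and higher for 1. The list is poor in GC (median 41.4%), and protein-coding genes of like GC and length had a median of 0.32. Clec4d measured 330.1, 361 and 374 CPM in replicates 1–3 and 180.4, 191 and 227 CPM in replicates 4–6 (log2 fold change -0.83 ± 0.11 (SE), adjusted p = 0.00024), Clec4a3 fell from 85.9 ± 1.28 to 47.5 ± 15.96 CPM and Clec10a, a galactose-type lectin, from 40.5 ± 3.44 to 21.4 ± 5.25 CPM. With the trend removed 7 were lower, with a median of -0.93. Complement genes gave 1 higher and 4 lower of 12. Itgb2, the β2 integrin chain of complement receptors, measured 349.5, 318 and 283 CPM in replicates 1–3 and 111, 121 and 154 CPM in replicates 4–6 (log2 fold change -1.30 ± 0.14 (SE), adjusted p = 6.89e-05), and its call held with the trend removed (-0.78).

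Polarization, osteoclast and costimulatory genes. RAW264.7 cells can form osteoclasts. Of 16 osteoclast genes 3 were higher and 8 lower. Tcirg1, a subunit of the proton pump, measured 753, 749 and 762 CPM in replicates 1–3 and 339, 380.0 and 429 CPM in replicates 4–6 (log2 fold change -0.98 ± 0.11 (SE), adjusted p = 9.13e-05), and Clcn7, the chloride antiporter beside it, fell from 157 ± 13.9 to 75.1 ± 17.4 CPM. Neither held with the trend removed (-0.23 and -0.52), where the list gave 2 higher and 4 lower. Mitf, a transcription factor, rose from 36.5 ± 0.751 to 86.5 ± 22.8 CPM. Of 10 alternative activation genes 1 was higher and 5 lower, or 0 and 4 with the trend removed. Tgm2, transglutaminase, measured 110.3, 70.4 and 74.5 CPM in replicates 1–3 and 18.2, 25.9 and 32 CPM in replicates 4–6 (log2 fold change -1.74 ± 0.23 (SE), adjusted p = 0.000205), and Il13ra1, a chain of the type II Il-4 receptor, rose from 26.05 ± 2.49 to 52.9 ± 17.9 CPM, a rise that did not pass with the trend removed (0.36). Arg1 and Mgl2 were not tested, at up to 3 and 10 counts in any library. Mrc1 (CD206) measured 1.37, 1.87 and 1.81 CPM in replicates 1–3 and 1.72, 1.44 and 1.82 CPM in replicates 4–6 and did not pass the test (log2 fold change -0.02 ± 0.25 (SE), adjusted p = 0.95). None of 14 costimulatory and checkpoint ligands was higher and 7 were lower, or 4 with the trend removed. Sirpa, an inhibitory receptor that binds CD47, measured 1354, 1304 and 1287 CPM in replicates 1–3 and 752, 869.9 and 827 CPM in replicates 4–6 (log2 fold change -0.69 ± 0.10 (SE), adjusted p = 0.000416), and was not called with the trend removed (-0.13), while Lgals9 (galectin-9) fell from 94.4 ± 4.71 to 34.8 ± 11.3 CPM.

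Macrophage markers and other cell types. All 17 macrophage markers had counts, and their summed level was 12980.4, 15437 and 15247 CPM in replicates 1–3 and 8737, 7898 and 9138 CPM in replicates 4–6. Of 16 tested, 1 was higher and 10 were lower (median -0.71), and with the trend removed 4 were lower (median -0.24). Cd68 measured 1507, 1452 and 1494 CPM in replicates 1–3 and 397, 506 and 677 CPM in replicates 4–6 (log2 fold change -1.50 ± 0.18 (SE), adjusted p = 0.000124). Mpeg1 (perforin-2) measured 1269, 1584 and 1799 CPM in replicates 1–3 and 529.6, 643 and 878 CPM in replicates 4–6 (log2 fold change -1.18 ± 0.20 (SE), adjusted p = 0.000796), and Csf1r, the receptor for CSF1, measured 1273, 1545 and 1454 CPM in replicates 1–3 and 911, 864 and 797 CPM in replicates 4–6 (log2 fold change -0.73 ± 0.12 (SE), adjusted p = 0.000551). With the trend removed Cd68 and Mpeg1 kept their calls (-1.04 and -1.41) and Csf1r did not (-0.23). Adgre1 (F4/80) measured 119, 155 and 154 CPM in replicates 1–3 and 164, 148 and 133 CPM in replicates 4–6 and did not pass (log2 fold change 0.06 ± 0.13 (SE), adjusted p = 0.713). Ptprc (CD45), poor in GC, was the marker that rose, from 192 ± 12.1 to 467 ± 66.3 CPM, and it was not called with the trend removed (0.28).

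Markers of other cells were near 0 or low in both sets, apart from the B cell list. All 6 epithelial markers, 5 of 6 fibroblast, 5 of 6 erythroid and 6 of 9 neutrophil and mast cell markers were at 0 in every library, and the summed level of the last list was 0.152 to 0.278 CPM. Summed dendritic cell markers stayed between 0.916 and 1.82 CPM over all 6 libraries, and T cell markers between 7.56 and 12.3 CPM. B cell markers summed to between 72.99 and 93.6 CPM in the first set and between 26.2 and 42.97 CPM in the second, nearly all of it Blnk, an adaptor that macrophages also express, which fell from 80.9 ± 11.1 to 34.8 ± 8.38 CPM.

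**Figure D5:**
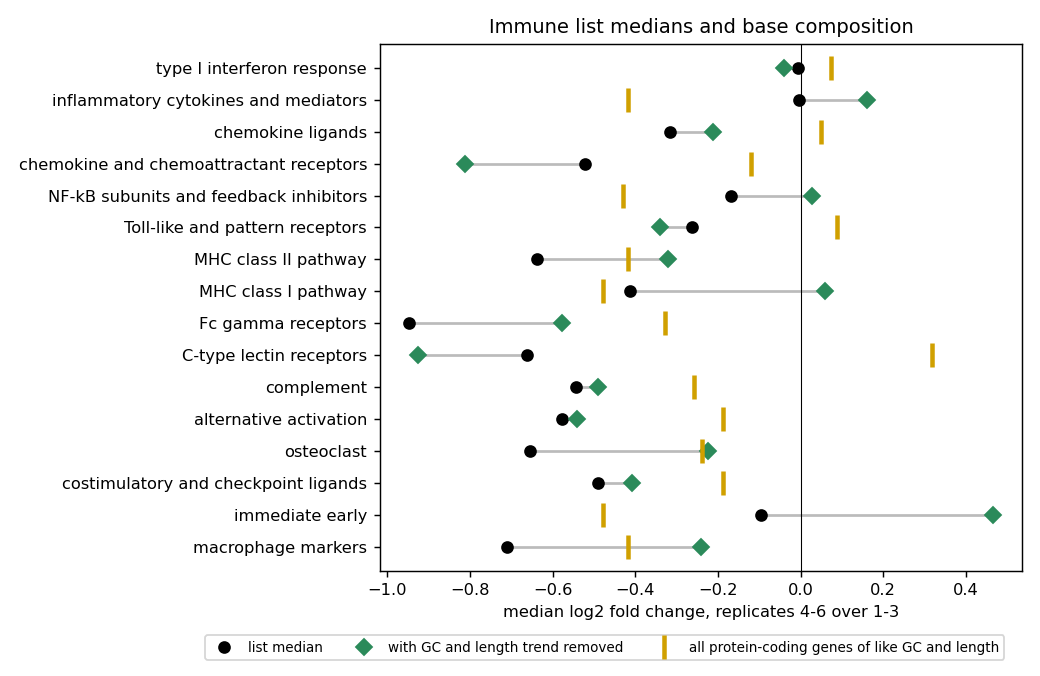
Median log2 fold change of each immune list as tested (circles), after the GC and length trend of each library was removed (diamonds), and the median of protein-coding genes in the same quintiles of GC and length (bars). The MHC class I pathway moves from -0.41 to 0.06 and immediate early genes from -0.10 to 0.47, while C-type lectin receptors move from -0.66 to -0.93.

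Proliferation, hypoxia and stress genes were measured beside these. In the list of DNA replication and mitosis 15 of 35 were higher and 4 lower, with a median of 0.42. Of its members, 4 are given here that were chosen after their values were seen. The spindle motor gene Kif11 measured 32.2, 30.1 and 33.8 CPM in replicates 1–3 and 238, 140.2 and 75.7 CPM in replicates 4–6 and the topoisomerase gene Top2a 144, 157 and 145 CPM in replicates 1–3 and 719.6, 474 and 280.2 CPM in replicates 4–6, and both were called higher. In both genes replicate 4 was highest and replicate 6 lowest of replicates 4–6. The transcription factor gene E2f1 and the replication licensing gene Cdt1 fell from 41.4 ± 7.45 to 14.2 ± 1.93 CPM and from 109.6 ± 8.32 to 68.9 ± 4.98 CPM, and Cdt1 was not called with the trend removed (0.10). The whole list then gave 17 higher and 2 lower. Of 24 hypoxia response genes 8 were higher and 1 lower, against 1 higher and 7 lower in the PBS cells of the IFNγ table. In the Il-4 table the sets overlapped for 6 of the 8, and with the trend removed 6 were higher and none lower, Bnip3 not among them. The peptide hormone gene Adm measured 2.17, 2.07 and 0.0740 CPM in replicates 1–3 and 21.2, 14.5 and 0.455 CPM in replicates 4–6 and the mitophagy gene Bnip3 121, 63.2 and 16.9 CPM in replicates 1–3 and 423, 331 and 58.4 CPM in replicates 4–6, with replicate 3 lowest of replicates 1–3 and replicate 6 lowest of replicates 4–6 in both.

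Of 17 tested targets of NRF2, the regulator of the oxidative stress response, 1 was higher and 8 lower, or 1 and 6 with the trend removed. Fth1, the ferritin heavy chain, measured 8961, 8577 and 8637 CPM in replicates 1–3 and 2135, 2447 and 3225 CPM in replicates 4–6 (log2 fold change -1.75 ± 0.17 (SE), adjusted p = 3.88e-05), and Hmox1, which breaks down heme, measured 386, 298 and 281 CPM in replicates 1–3 and 60.2, 96.8 and 117 CPM in replicates 4–6 (log2 fold change -1.82 ± 0.23 (SE), adjusted p = 0.00016). The integrated stress response gave 3 higher and 5 lower of 20, and sterol synthesis 5 and 7 of 23. With the trend removed the integrated stress response gave 3 higher and 1 lower, and sterol synthesis 5 and 3. Lists of lysosomal proteins and of endoplasmic reticulum folding genes were drawn up after several members had been seen to be lower, so their counts only describe these libraries: 19 of 29 lysosomal genes and 15 of 24 folding genes were lower, and 0 and 1 higher. Grn (progranulin) measured 3076, 3091 and 3110.4 CPM in replicates 1–3 and 359, 589.9 and 906 CPM in replicates 4–6. Ctsb, a lysosomal protease, measured 6990.0, 7027 and 7402 CPM in replicates 1–3 and 1699, 2350.3 and 3309 CPM in replicates 4–6, and Pdia3, a disulfide isomerase, 2382, 2720.2 and 2757 CPM in replicates 1–3 and 526, 744 and 1146 CPM in replicates 4–6. With the trend removed 12 and 6 were lower.

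The peptide arms and the other table. The same contrast of replicates 4–6 with 1–3 called 8843 of 14183 genes (62.3%) in cells given 65–79*SE with Il-4 and 8262 (58.3%) in cells given 65–79*PE with Il-4. Of the 6257 genes called in PBS cells, 5602 were called in the same direction in both arms. A test of the difference between the PBS contrast and the mean of the 2 peptide contrasts called 360 genes (2.54%), 54 more positive and 306 more negative in PBS. That fit left out the replicate number, which the arms share. With the number as a block 896 genes were called, 292 more positive and 604 more negative in PBS. Replication-dependent histones took 0.00751% to 0.0139% of counts in replicates 1–3 of the peptide arms and 0.338% to 0.942% in replicates 4–6. Of the 238 tested immune genes 4 passed the call for that difference without the block. With the block 23 passed, 17 of them more positive in PBS.

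In the IFNγ table the PBS replicates 1–3 are labelled A, I and Q as well. Their counts were not those of the Il-4 table. Over genes with at least 1000 counts in both, the log2 ratio to the same-numbered library had an SD of 0.395 to 0.428. To the nearest library of the same set it was 0.0993 to 0.212. For replicates 4–6, which carry HLA labels in the IFNγ table, these values were 0.575 to 0.723 and 0.253 to 0.254. Whether the tables share cultures was not settled by the labels. Replicates 4–6 against 1–3 there called 7859 of 15344 genes (51.2%), 4298 of them higher and 3561 lower. Of the 6031 genes called in the Il-4 table and tested there, 3579 were called in the same direction and 250 in the opposite one. Of 113 immune genes called, 49 were called the same way and 6 the opposite way. Tlr4 had a log2 fold change of 1.71 there against 2.09 here, Tgfb1 -1.40 against -2.23, and Cd68 -0.14 against -1.50. The 39 type I interferon response genes tested here gave 24 higher and 2 lower there, to be read against the shares of all genes there. Here they gave 7 and 7, and this difference was not tested. Spearman's rho between GC and log2 fold change was -0.62 there as well, and -0.69 with 65–79*SE and -0.68 with 65–79*PE.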

How the data were processed

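RNA-seq of 6 PBS libraries was taken from the Il-4 table. The deposited values are raw counts, 1 whole number per gene and library. By their methods the authors used a stranded poly(A) kit, read 100 bp from 1 end, and counted reads that aligned uniquely with featureCounts of Rsubread on GENCODE M12. The submitters' notes also name DESeq2 1.16.1 and R 3.4.1. The aligner and the strand option were not given in the sources used here, so overlapping antisense genes may be mixed.

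Of 49568 gene names, 47287 (95.4%) matched GENCODE M21 of GRCm38, which gave classes, coordinates and transcripts. A spreadsheet had turned 26 names into dates. The IFNγ table was used for its 6 PBS columns, and its other 12 columns were not used.

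Counts were tested with glmQLFit and glmQLFTest of edgeR 4.0.16 in R 4.3.3, with TMM scaling and filterByExpr, 3 libraries against 3. A gene was called where its p-value, adjusted after Benjamini and Hochberg, was below 0.05 and its fold above 1.5. The peptide arms and the difference between contrasts came from 1 model of 18 libraries, without the replicate number unless stated. Class shares were compared by exact permutation tests. A test on simulated data for the PBS comparison, in which 200 genes were changed, was run first. Floors of 3 counts reflect counting error alone, as the reads carried no molecular identifiers.

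Members and gene lists were chosen with earlier results of these data known. The genes named were those called without overlap at 10 CPM or more: the 6 largest rises and 6 largest falls among nuclear protein-coding genes, the 4 most abundant histone and 4 other noncoding genes, up to 3 per immune list, and fixed reference genes such as Tnf and Malat1. Any other gene was chosen after its values were seen, as were the lysosomal and folding lists. A gene that the rule names is not reported here. Alternatives were RLE scaling, DESeq2 1.42.0, other filters, all 18 libraries, scaling on protein-coding genes, a fold over 2, leaving out each library, other denominators for shares, and removal of GC and length trends, which was added later.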

Additional observations from a re-analysis of the deposited data

Results flagged for a closer look

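The difference between replicate sets was not the same in PBS cells and in cells given peptide with Il-4 for 3 of the named genes and for the 4 immune genes past the call, by edgeR's test of the difference between the contrasts. The values given here are from the fit without the replicate number. The difference is the PBS log2 fold change minus the mean of the log2 fold changes in the arms with peptide. It was -1.33 for Malat1 (adjusted p = 0.0267), with 4.51 and 4.23 in the peptide arms. Lmbrd2 gave -1.28 (adjusted p = 0.0213) and Zfp871 -1.15 (adjusted p = 0.0111), so these 3 genes were higher in replicates 4–6 in every arm and less so in PBS cells.

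The 4 immune genes went the other way. Bcl3, an IκB family member, gave 0.96 (adjusted p = 0.039), with -1.32 in PBS cells against -2.09 and -2.57 with peptide. The immediate early genes Ier2 and Ier5 gave 0.955 (adjusted p = 0.0392) and 0.633 (adjusted p = 0.0453), and the class I gene H2-Q4, one of a family of near-identical genes, gave 0.803 (adjusted p = 0.0439). The last 3 were not called in PBS cells. No explanation was tested, and the test of the difference was not run with the GC and length trend removed.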

How the results depend on the processing

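No paired analysis was possible because replicates 1–3 and 4–6 share no replicate number. The difference between the PBS and peptide contrasts can take the number as a replicate block (added after seeing the data), and it then called 896 genes (292 more positive in PBS) in place of 360, 358 of them shared. Same-numbered libraries often deviated alike: their deviations correlated over 0.1 in 14 of 18 comparisons between arms (r = -0.135 to 0.725), and own number was best in 14. The labels do not say what libraries of the same number share, so the results of both fits are given. With the block all 7 genes given for this difference stayed called, and 23 immune genes were called in place of 4. Counts of called genes stayed within 1.5 times of 6257 under RLE scaling (6246), DESeq2 (7054), no filter (7935), at least 10 counts in every library (4946), all 18 libraries (7083), scaling on protein-coding genes (6180), GC and length trend removed (4687) and leaving out each library (6054 to 6830; 3427 to 3739 higher and 2599 to 3091 lower). A fold over 2 gave 3767, of which 1324 lower. Scaling on protein-coding genes moved the share of called genes that were higher from 56.2% to 61.4%, and the median of all genes to 0.10, and DESeq2 moved that median to 0.27 over 23909 genes. Of the log2 ratios of class shares, 74 of 77 values moved by less than the spread between libraries. The others were 7.14 for snoRNA and -0.37 for mitochondrial messenger RNA with protein-coding counts as denominator, and 13.36 for the ribozyme class without replicate 1 (range 10.59 to 13.36 over single libraries left out). For 72 named genes with a test, 879 of 931 values kept direction and call, 38 lost the call, 13 gained it and 1 reversed: Neat1 at -0.76 with the trend removed. The cause was not tested. Levels below the floors of 0.114 to 0.176 CPM could not be told from 0 at this depth.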
